A study of Mus musculus with 2 samples.

Results

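*Pmel*, *Mlana*, *Dct*, *Tyrp1* and *Tyr* are genes of the pigment cell lineage, and B16 melanoma cells carry their transcripts. The 5 genes, of 31053 mouse genes in the matrix, were followed through all 14035 deposited cell barcodes of T cells sorted from mouse tumors. The genes were chosen by name. Their values were taken in 4 groups of barcodes: barcodes with fewer than 200 detected genes, T cells with at least 1 UMI of *Cd3e* (a chain of the T cell receptor complex), myeloid cells with at least 1 UMI of *Csf1r* (a receptor of macrophages and monocytes) and none of *Cd3e*, and barcodes in which *Pmel*, *Mlana*, *Dct* and *Tyrp1* summed to 20 UMIs or more, called rich barcodes here. A UMI is a molecular tag that counts 1 captured RNA molecule, and CPM are UMIs per 1000000 mouse UMIs of the same barcodes.

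T cells had been sorted from tumors grown from B16, a mouse melanoma cell line, or from B16–IL-33, the same line made to express the cytokine IL-33. Neither group received a treatment, and both kinds of tumor were labelled with hashtag antibodies and mixed into 1 pool, which gave 1 gene expression library, 1 hashtag library and 1 T cell receptor library. With 1 pool there are no replicate libraries, so values below carry exact 95% intervals that cover counting error only, and no test across samples was possible. The study's mice were of the C57BL/6 background, and the age of those used for this library was not given in the sources used here.

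Melanocytes make melanin in melanosomes. Tyrosinase, the product of *Tyr*, carries out the rate-limiting step. Dopachrome tautomerase, the product of *Dct*, and the product of *Tyrp1* act later in the pathway, and all 3 enzymes belong to the same family. *Pmel* encodes the protein of the fibrils on which melanin is laid down, and *Mlana* encodes a small melanosomal membrane protein known as an antigen of tumor-reactive T cells. The transcription factor MITF drives these genes through a motif called the M-box. T cells are not known to transcribe them. In droplet sequencing, RNA released by broken cells is captured in droplets together with the RNA of the enclosed cell, and transcripts of a cell type that a sort should remove are one readout of such free RNA.

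The library counts the 5′ ends of transcripts, and the promoter lies directly upstream of the counted end. RefSeq promoters (GRCm38.p6) matched 3 of the 5 members, *Dct*, *Tyrp1* and *Tyr*. They are shown because each holds the M-box core TCATGTG, a motif already known for these genes, so finding it is no new result. Capitals mark the core, and each run is on the strand of the gene, 5′ to 3′.
Dct, chr14:118052338-118052437, minus strand: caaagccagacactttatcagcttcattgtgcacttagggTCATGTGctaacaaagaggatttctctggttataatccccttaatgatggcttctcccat
Tyrp1, chr4:80834126-80834212, plus strand: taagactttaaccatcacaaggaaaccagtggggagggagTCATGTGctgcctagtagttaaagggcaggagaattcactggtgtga
Tyr, chr7:87493513-87493574, minus strand: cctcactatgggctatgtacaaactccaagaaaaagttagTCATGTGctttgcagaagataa
The core began 151 bases before the RefSeq start of *Dct*, 47 before that of *Tyrp1* and 22 before that of *Tyr*. The RefSeq start of *Tyrp1* lies 90 bases downstream of the start of the gene in GENCODE, so its run falls inside the GENCODE interval given next. *Dct* held a further copy on the other strand, 232 bases before the start. Searched on both strands of the 250 bases before the start, TCATGTG was in 1068 of 32851 RefSeq promoters, or 3.25%, and the shorter CATGTG that it contains was in 12.3%. A match to these letters is a description and does not show that a factor was bound.

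In GENCODE annotation of GRCm38, the build also called mm10, *Pmel* lies on chr10:128704195-128720238 and *Mlana* on chr19:29697824-29708634, both on the plus strand. *Tyrp1* lies on chr4:80834123-80851719, on the plus strand. *Tyr* (chr7:87424771-87493512) and *Dct* (chr14:118012790-118052244) lie on the minus strand. *Pmel* overlaps the ends of *Cdk2* and *Dgka* on the opposite strand, and *Dct* overlaps the antisense gene *4930435M08Rik*. *Mlana*, *Tyrp1* and *Tyr* overlap no annotated gene. Of the 31-base words in their transcripts, none of those of *Pmel* or *Mlana*, 0.590% of those of *Tyrp1*, 2.04% of those of *Tyr* and 2.80% of those of *Dct* also occur in a transcript of another gene. The matrix was aligned to a combined human and mouse reference, and human *PMEL*, *MLANA*, *DCT*, *TYRP1* and *TYR* held 0 UMIs.

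The library held 43420305 mouse UMIs, with a median of 1960 per barcode. Of its barcodes, 11756 were also in the hashtag library, and 6665 had a T cell receptor contig. The T cell group held 9236 barcodes, of which 5436 had a productive TCR β contig. The sort was on T cells, and the 8 fixed T cell markers (*Cd3d*, *Cd3e*, *Cd3g*, *Trac*, *Trbc2*, *Cd2*, *Thy1* and *Lck*) stood at 5456 CPM in T cells without the rich barcodes and at 131 CPM in myeloid cells. The groups overlapped in part: 185 T cells and 1 myeloid cell had fewer than 200 genes. No doublet caller was run.

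The 5 transcripts together had 46452 UMIs, and 98.2% of these were in 109 rich barcodes, which were 0.777% of all barcodes and held 9.52% of all UMIs. The remaining 857 UMIs were spread over 671 of the other 13926 barcodes. In T cells, 93.5% of the 7144 UMIs sat in 19 rich barcodes. The summed level of the 5 genes in T cells was thus 211 CPM (207 to 216) with those 19 barcodes and 14.01 CPM (12.8 to 15.3) without them, a ratio of 15.1 (13.7 to 16.6). All later values for T cells leave the 19 out unless stated.

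**Figure D1:**
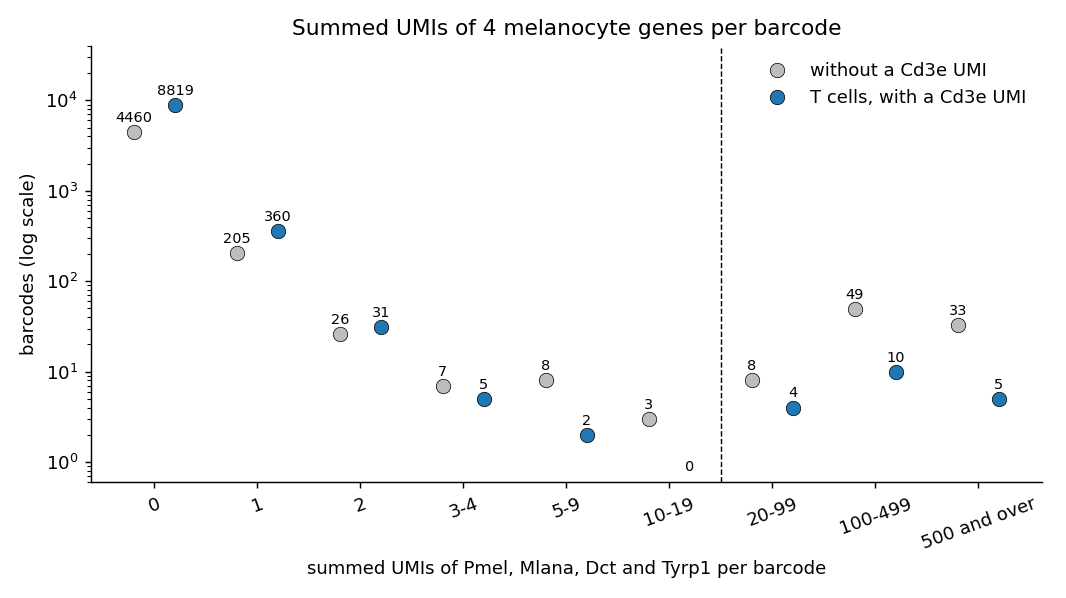
Barcodes (log scale) by their summed UMIs of *Pmel*, *Mlana*, *Dct* and *Tyrp1*, for barcodes with and without a *Cd3e* UMI; the number above each point is the count of barcodes, a count of 0 has no point, and the dashed line is the sum of 20 that makes a barcode rich. Counts fall from 565 barcodes with a sum of 1 to 3 barcodes with a sum of 10 to 19 and rise again to 59 barcodes with a sum of at least 100 and under 500.

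Between the rich barcodes and the rest few barcodes lay near the threshold. The highest sums below it were 16, 11 and 11, and the lowest above it were 21, 22 and 24. The barcode with 16 had 8204 UMIs in all, and those with 21, 22 and 24 had 1492, 2132 and 1330. Among T cells no sum fell between 10 and 19. A sum of 3 or more below the threshold was seen in 25 barcodes, or 0.180% of 13926.

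In the rich barcodes *Dct* had a median of 227 UMIs per barcode (range 12 to 555). *Tyrp1* had a median of 60 (1 to 192), *Pmel* of 56 (0 to 329), *Mlana* of 49 (0 to 193) and *Tyr* of 8 (0 to 45). *Dct* and *Tyrp1* had a UMI in all 109, *Mlana* in 108, *Pmel* in 106 and *Tyr* in 100. *Tyr*, which the rule for rich barcodes does not use, had a UMI in 91.7% of them (84.9% to 96.2%) and in 32 of the other 13926 barcodes, or 0.230% (0.157% to 0.324%). UMIs are counted once per molecule, so these levels were not divided by length, but capture may differ between genes.

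Rich barcodes were also deep. Their total ran from 1330 to 78650 UMIs with a median of 41127, and their genes from 751 to 7430. None had fewer than 200 genes, and none was a myeloid cell (0 of 109, upper exact limit 3.33%). With 104 of the 109 above 2500 genes, 3 met the study's limits of 200 to 2500 genes and under 5% mitochondrial UMIs. Per barcode, the 5 genes took 2580 to 28289 CPM, with a median of 10363 CPM.

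**Figure D2:**
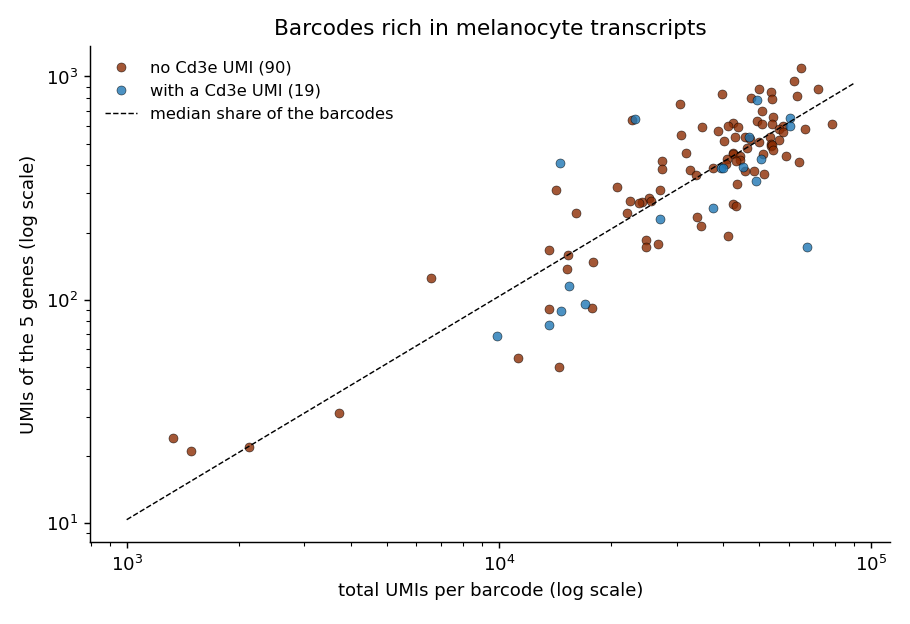
UMIs of the 5 genes against total UMIs in each of the 109 rich barcodes, both on log scales, colored by whether the barcode had a *Cd3e* UMI; the dashed line is the median of 10363 CPM. The 19 barcodes with a *Cd3e* UMI lie among the other 90 and range from 69 to 782 UMIs of the 5 genes.

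The 19 rich barcodes with *Cd3e* held between 1 and 6 *Cd3e* UMIs, with a median of 2, and 8 of them had a productive TCR β contig. Their 5 genes stood at 9794 CPM (9561 to 10032) against 11274 CPM (11162 to 11387) in the 90 without *Cd3e*. *Dct* was at 5378 CPM in the former and 6082 CPM in the latter, and *Tyr* at 276 and 231 CPM. The median barcode of the former had 8478 CPM and that of the latter 10661 CPM, within the range of either set. In all rich barcodes the 8 T cell markers had 228 UMIs, which is 55.2 CPM (48.2 to 62.8) and 1.01% (0.884% to 1.15%) of their level in T cells.

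Barcodes with fewer than 200 genes numbered 2203, with a median of 145 UMIs and 339701 UMIs in all, 0.782% of the library. The 5 genes had 85 UMIs there, which is 250.2 CPM (199.9 to 309). *Dct* had 48 of these (141 CPM, 104 to 187), *Mlana* 14 (41.2 CPM, 22.5 to 69.1), *Pmel* 11 (32.4 CPM, 16.2 to 57.9), *Tyrp1* 7 (20.6 CPM, 8.28 to 42.5) and *Tyr* 5 (14.7 CPM, 4.78 to 34.3). They were scattered: 73 barcodes had 1 UMI of a member, 6 had 2 and none had more. The share of barcodes with a UMI was 3.59% (2.85% to 4.45%).

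T cells and myeloid cells had the lowest levels of the 4 groups. Over the T cells, 9217 barcodes and 33112152 UMIs, the 5 genes had 464 UMIs. *Dct* had 242 of these (7.31 CPM, 6.42 to 8.29), *Mlana* 84 (2.54 CPM, 2.02 to 3.14), *Pmel* 66 (1.99 CPM, 1.54 to 2.54), *Tyrp1* 58 (1.75 CPM, 1.33 to 2.26) and *Tyr* 14 (0.423 CPM, 0.231 to 0.709). A member had a UMI in 410 T cells, or 4.45% (4.04% to 4.89%), with 1 UMI in 370 of them, 2 in 33 and 3 to 7 in 7. Compared with T cells, the summed level in CPM was 17.9 times as high in barcodes under 200 genes (13.999 to 22.5) and 787 times as high in rich barcodes (718 to 864). The rule chose the rich barcodes by the same genes, so the latter ratio is a description of that choice.

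Each member had the same order of groups, with the rich barcodes highest, then barcodes under 200 genes, and then T cells. The ratio of barcodes under 200 genes to T cells was 11.8 (4.53 to 25.8) for *Tyrp1*, 16.2 (7.74 to 30.99) for *Pmel*, 16.2 (8.52 to 28.8) for *Mlana*, 19.3 (13.9 to 26.4) for *Dct* and 34.8 (9.81 to 102) for *Tyr*. These intervals overlap, so at this depth no member could be told from the others by this ratio.

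**Figure D3:**
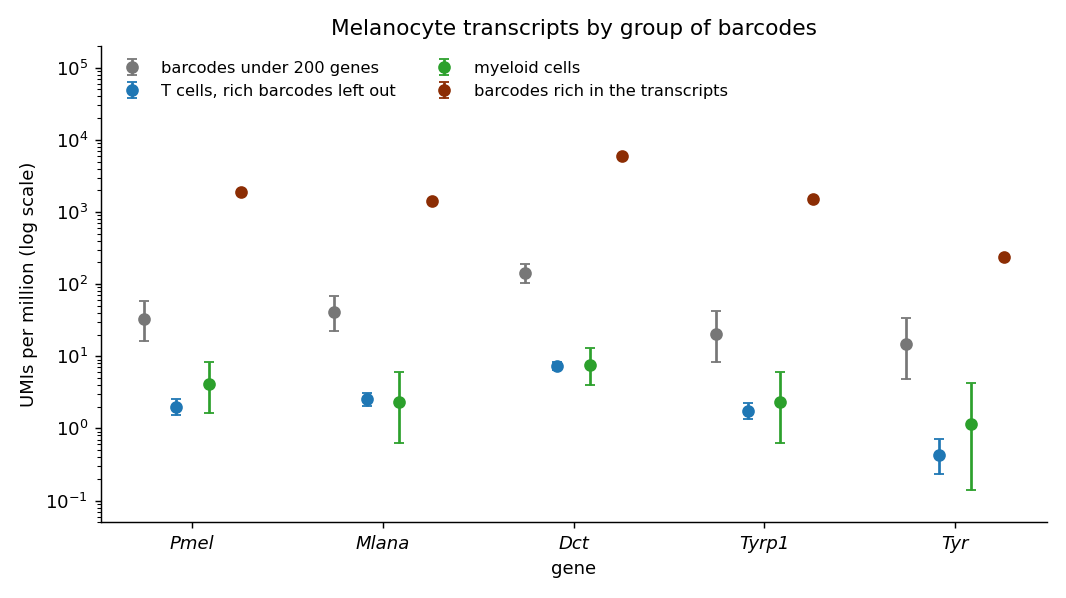
CPM (log scale) of each gene in barcodes under 200 genes, T cells without rich barcodes, myeloid cells and rich barcodes, with exact 95% Poisson intervals for counting error. *Dct* runs from 7.31 CPM in T cells to 141 CPM in barcodes under 200 genes and 5966 CPM in rich barcodes, and the other genes keep this order of the 3 groups.

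Counted per barcode rather than in CPM, T cells and barcodes under 200 genes were close. A T cell held 0.0503 UMIs of the 5 genes on average (0.0459 to 0.0551) and a barcode under 200 genes 0.0386 (0.0308 to 0.0477), a ratio of 1.30 (1.03 to 1.66), although T cells held 3593 UMIs in all on average and these barcodes 154. Of the barcodes under 200 genes, 79 held no mouse UMI at all and so lowered the mean of their group. The ratio without them was not computed. Across T cells binned by total UMIs the number of member UMIs per cell stayed between 0.0411 and 0.0580. It was 0.0553 (0.0295 to 0.0946) in the 235 T cells under 500 UMIs, 0.0495 (0.0424 to 0.0574) in the 3496 with 2000 to 4000 UMIs, and 0.0580 (0.0422 to 0.0779) in the 758 with 8000 or more. Every bin's interval held the mean of all T cells. Over the same bins the level fell from 269.96 CPM to 4.47 CPM.

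*Dct* had 26.1 UMIs per 1000 T cells (20.8 to 32.4) under 2000 total UMIs, 26.3 (21.2 to 32.3) from 2000 to 4000 and 26.3 (20.4 to 33.5) at 4000 or more. *Mlana* had 8.40, 10.3 and 8.38 per 1000 T cells in these ranges of depth, *Pmel* 6.85, 5.15 and 10.4, *Tyrp1* 7.47, 6.29 and 4.79, and *Tyr* 2.18, 1.43 and 0.798. For each gene the 3 intervals overlapped. As a level, *Dct* stood at 21.8, 9.27 and 3.41 CPM.

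**Figure D4:**
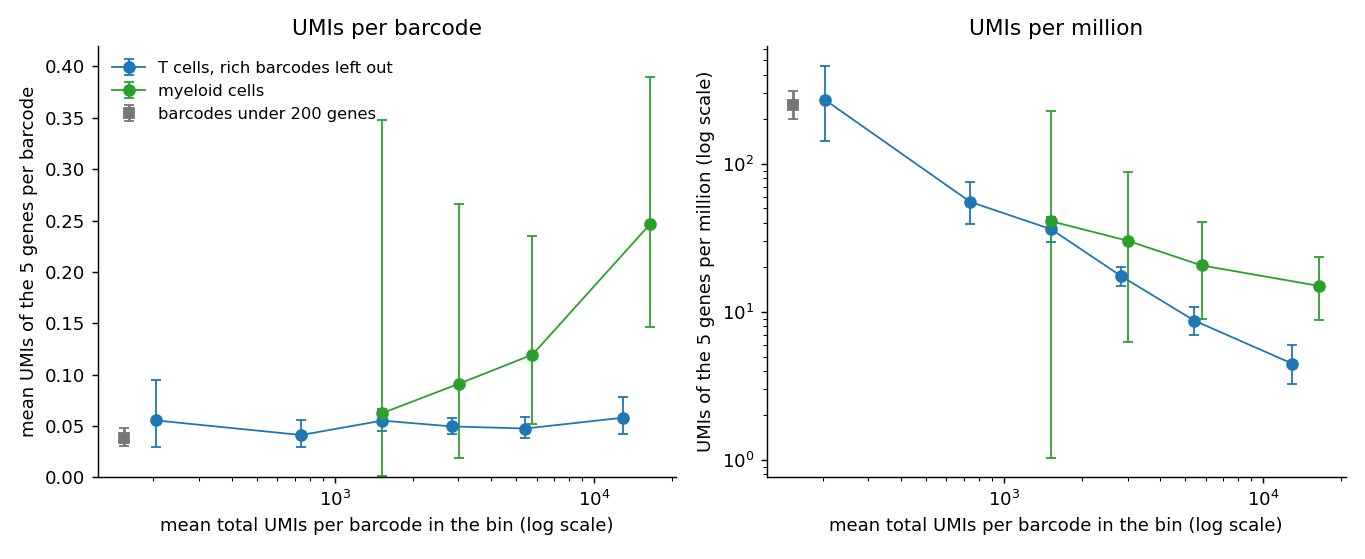
Mean UMIs of the 5 genes per barcode (left) and their CPM (right, log scale) against the mean total UMIs of bins of T cells and myeloid cells (log scale; bins with at least 10 barcodes), with barcodes under 200 genes as a square and exact 95% Poisson intervals. T cells stay between 0.0411 and 0.0580 UMIs per barcode at all depths, while their level falls from 269.96 to 4.47 CPM.

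The 196 myeloid cells, with a median of 6248 UMIs, had 30 member UMIs, which is 17.5 CPM (11.8 to 24.9). *Dct* had 13 of them, *Pmel* 7, *Mlana* 4, *Tyrp1* 4 and *Tyr* 2. In CPM pooled over all depths, myeloid cells and T cells could not be told apart (ratio 1.247, 0.832 to 1.80). T cells were shallower, with a median of 2608 UMIs, and their level in CPM fell with depth. At 8000 total UMIs or more, myeloid cells stood at 14.98 CPM (8.88 to 23.7) and T cells at 4.47 CPM (3.25 to 6.003). In each shallower bin the intervals of the groups overlapped. Per barcode over all depths, myeloid cells held 0.153 UMIs (0.103 to 0.219), 3.04 times the T cell value (2.03 to 4.40). At 4000 total UMIs or more the ratio per barcode was 3.67 (2.31 to 5.62), from 26 UMIs in 140 myeloid cells and 127 UMIs in 2507 T cells.

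By depth, myeloid cells held 0.0625 member UMIs per cell (0.00158 to 0.348) at 1000 to 2000 total UMIs, from 1 UMI in 16 cells, and 0.247 (0.146 to 0.390) at 8000 or more, from 18 UMIs in 73 cells. The intervals of their bins overlap. A UMI of a member was in 26 myeloid cells, or 13.3% (8.85% to 18.8%), and no myeloid cell had more than 3. With every barcode thinned to 1500 UMIs, the share was 2.21% (0.605% to 5.56%) of 181 myeloid cells and 2.20% (1.87% to 2.57%) of 7086 T cells, with 15 and 2131 shallower barcodes left out. The intervals are wide for myeloid cells because 4 thinned barcodes carry the share. Thinning was 1 random draw that lowers all genes in proportion to depth, a proportion that member UMIs in T cells did not follow. The near equality thus does not show that the groups are alike.

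The make-up of the UMIs among the 5 genes was similar in all groups. *Dct* gave 56.5% (45.3% to 67.2%) of the 85 UMIs in barcodes under 200 genes, 52.2% (47.5% to 56.8%) of the 464 in T cells, 43.3% (25.5% to 62.6%) of the 30 in myeloid cells and 54.1% (53.6% to 54.5%) of the 45595 in rich barcodes. *Pmel* gave 12.9%, 14.2%, 23.3% and 17.1% in the same order, and *Tyrp1* 8.24%, 12.5%, 13.3% and 13.6%. *Tyr*, the least counted, gave 5.88%, 3.02%, 6.67% and 2.16%. *Mlana* was the member whose intervals did not all overlap, at 18.1% (14.7% to 21.9%) in T cells and 13.001% (12.7% to 13.3%) in rich barcodes, with 16.5% (9.31% to 26.1%) in barcodes under 200 genes. These intervals treat UMIs as independent, while rich barcodes differed among themselves, with *Mlana* between 0 and 5185 CPM.

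**Figure D5:**
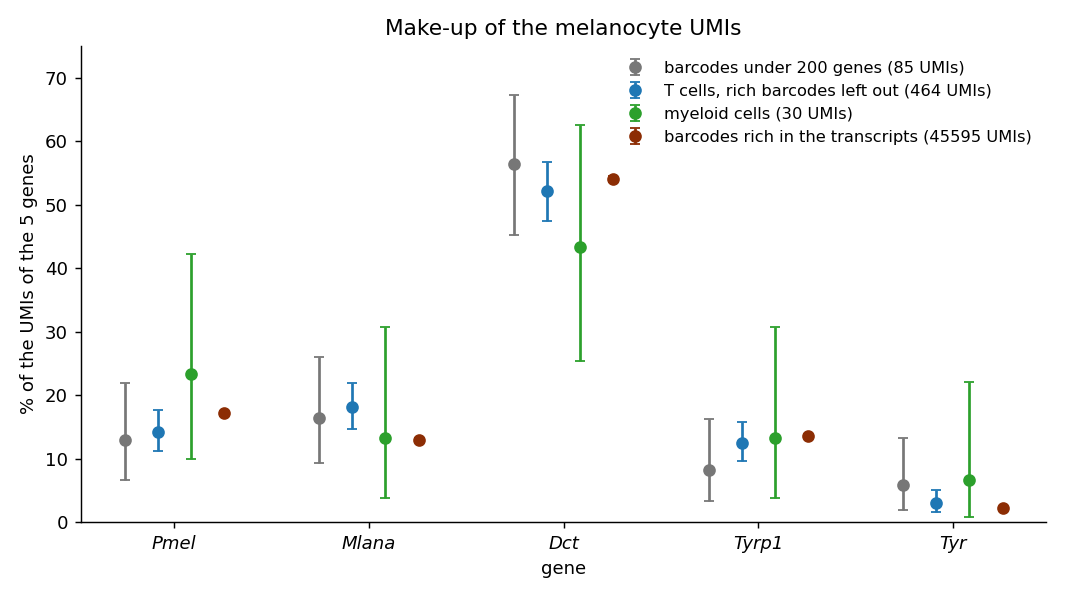
Share of the UMIs of the 5 genes that each gene gave, in the 4 groups of barcodes, with exact 95% binomial intervals for counting error. *Dct* gives between 43.3% and 56.5% in each group, and *Mlana* gives 18.1% in T cells and 13.001% in rich barcodes.

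Among T cells the member UMIs per cell did not separate the lineages. T cells with *Cd8a* and neither *Foxp3* nor *Cd4* held 0.0468 (0.0351 to 0.0612), those with *Foxp3*, the transcription factor of Treg cells, and no *Cd8a* held 0.0519 (0.0441 to 0.0607), and those with *Cd4* alone held 0.0490 (0.0396 to 0.0599). The same cells stood at 7.70, 12.9 and 16.5 CPM, with median totals of 4140, 3075 and 2497 UMIs. T cells with a productive TCR β contig held 0.0473 (0.0417 to 0.0535) and those without one 0.0546 (0.0474 to 0.0626). Per cell, the 1265 T cells with at least 5% mitochondrial UMIs held 0.0735 (0.0593 to 0.0901) and the others 0.0467 (0.0420 to 0.0517), a ratio of 1.58 (1.24 to 1.98). What this share marks in these cells was not tested.

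By hashtag, the kinds of tumor could not be told apart at this depth. A tag UMI was in 985 T cells, and 838 carried UMIs of the B16 tags alone. These held 36 member UMIs, or 0.0430 per cell (0.0301 to 0.0595). The 138 with B16–IL-33 tags alone held 6, or 0.0435 per cell (0.0160 to 0.0946), and the ratio per cell was 1.01 (0.349 to 2.43). By single tag the levels were 15.3 and 7.11 CPM for the B16 pair and 8.53 and 15.3 CPM for the B16–IL-33 pair, from 17, 18, 2 and 4 UMIs. Whether the tags of a pair mark separate mice was not given in the sources used here. Of the 109 rich barcodes, 65 were in the hashtag library and 1 had a tag UMI, against 97.1% and 10.7% of T cells.

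The share of T cell UMIs that free RNA may give was estimated from these values. If T cells make none of the 5 transcripts and barcodes under 200 genes hold free RNA alone, the share is the level in T cells over that in those barcodes, 5.60% (4.44% to 7.14%). That equals 201 (159 to 257) of the 3593 UMIs of an average T cell. It is more than the mean total of 154 UMIs in barcodes under 200 genes, which the estimate takes to hold free RNA alone. By depth the estimate went from 108% (55.2% to 195%) of the UMIs of T cells under 500 UMIs to 14.5% (10.8% to 19.4%) at 1000 to 2000, 6.97% (5.35% to 9.15%) at 2000 to 4000 and 1.79% (1.21% to 2.60%) at 8000 or more. The 185 T cells with fewer than 200 genes are in both groups. The value for T cells under 500 UMIs thus compares them in part with themselves, and its interval treats the groups as separate. With T cells of 200 genes or more the estimate over all depths was 5.51% (4.36% to 7.03%). Taken from 1 gene at a time the estimate was 5.17% from *Dct*, 6.16% from *Pmel* or from *Mlana*, 8.50% from *Tyrp1* and 2.87% from *Tyr*, with intervals that overlap.

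The part that transcripts of the rich barcodes alone may give was smaller. Set against the level in rich barcodes, the members' level in T cells was 0.127% (0.116% to 0.139%) of T cell UMIs, or 4.56 UMIs (4.16 to 5.001) per T cell. In barcodes under 200 genes the same share was 2.27% (1.81% to 2.81%).

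Whether barcodes under 200 genes hold free RNA alone was examined with the other marker lists. The 8 T cell markers stood there at 3347 CPM (3155 to 3547), 61.3% (57.8% to 65.0%) of the level in T cells. *Cd3d* (237 UMIs), *Cd3g* (220) and *Cd3e* (200) led the list, counted without the 11 barcodes described next. These barcodes may therefore hold free RNA, remnants of T cells or whole small cells, which cannot be told apart here, and *Cd3e* itself chose the T cells. Leaving out barcodes with a *Cd3e* UMI gave 249 CPM for the members and 5.62% for the estimate. In 11 barcodes under 200 genes hemoglobin genes, which mark red blood cells, had 9356 of the 9364 UMIs of this group, and these 11 had 0 UMIs of the members. Without hemoglobin-rich barcodes the members stood at 259 CPM and the estimate was 5.40% (4.28% to 6.89%).

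The marker lists differed in how their levels compared. The level in T cells as a percent of that in barcodes under 200 genes was 165% (143% to 191%) for 10 macrophage and monocyte markers, led by *Ctss* and *Lyz2* in the latter, 112% (89.9% to 140%) for 5 B cell markers, led by *Ighm*, and 131% (66.2% to 304%) for *Pecam1* and *Cdh5* of endothelial cells. For the 3 NK cell markers it was 166% (70.8% to 513%), and for the 4 hemoglobin genes 14.2% (6.98% to 33.7%) without the hemoglobin-rich barcodes, from 8 UMIs, so these genes too were lower in T cells than in barcodes under 200 genes. Single genes carried several lists in T cells. *Pecam1* gave 1020 of the 1021 endothelial UMIs there and *Eomes* 619 of the 809 NK cell UMIs. *Ctss* had a UMI in 40.6% of T cells and *Ighm* in 36.3%. Whether T cells make these transcripts themselves was not tested, so these percentages are not a measure of free RNA. In T cells 60.2% of the macrophage and monocyte UMIs were in the top 1% of barcodes, against 31.5% of the member UMIs. These rest on 31990 and 464 UMIs, so the percentages cannot be compared as a measure of clustering. Dendritic cell, neutrophil and fibroblast markers had 1 or 2 UMIs in barcodes under 200 genes, and keratinocyte markers had 0.

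All 5 members were at least 2-fold higher in CPM in barcodes under 200 genes than in T cells, as were 384 of the 9449 genes with at least 200 UMIs, or 4.06%. Against T cells, the rich barcodes were at least 10-fold higher for all 5, a contrast that the rule set for 4 of them, and for 2.93% of the same 9449 genes. Rich barcodes counted toward the minimum of 200 UMIs, so genes high there could pass it through them alone. A fixed list of 25 other genes of the melanocyte lineage was read in the same way. Of the 25, 17 had at least 200 UMIs, several of them almost wholly through the rich barcodes, so their counts are a description. Of these 17, 14 were at least 2-fold higher in barcodes under 200 genes than in T cells, each from 2 to 17 UMIs there. Of all 25, 19 had a UMI in barcodes under 200 genes and 22 in rich barcodes. The share over all genes is not given here, so these counts are no result about the list.

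The transcription factor genes *Sox10*, *Pax3* and *Mitf* stood at 144, 94.3 and 220 CPM in rich barcodes and at 0.211, 0.0906 and 2.60 CPM in T cells. *Slc45a2* and *Slc24a5*, transporter genes needed for pigmentation, stood at 514 and 349 CPM against 0.725 and 1.27 CPM. *Rab38*, which directs cargo to melanosomes, stood at 359 CPM in rich barcodes, 23.6 CPM under 200 genes and 1.15 CPM in T cells. *Sox10* had 7 UMIs under 200 genes (20.6 CPM), as many as *Tyrp1*.

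Some companion genes went the other way or are also used by other cells of the pool. *Ednrb* and *Mcoln3* had 0 UMIs in rich barcodes and 29 and 42 in T cells, and *Bcan* had 0 in both. *Rab27a*, which serves granule release in T cells as well, was at 41.7 CPM in T cells, 38.3 CPM under 200 genes and 56.8 CPM in rich barcodes. *Kit* had 1 UMI in rich barcodes and 278 in T cells. *Gpnmb*, also known from macrophages, was at 1883 CPM in rich barcodes, 574 CPM in myeloid cells and 21.0 CPM in T cells. With these genes included, the 25 gave 30.4% (25.0% to 37.2%) in place of 5.60%.

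Genes with the most similar pattern were ranked by Pearson's r of log2(CPM + 1) with the summed members over 10 disjoint groups of barcodes, which share 1 library and differ in depth. Of 9449 genes, 54 had an r above 0.9, or 0.571%. The 10 highest were *Wbp11*, *Rab38*, *Ptgds*, *Syt4*, *Slc45a2*, *Car6*, *Tbx2*, *Mboat2*, *Scn8a* and *Slc24a5*, with r between 0.931 and 0.953. The groups include the rich barcodes, so high levels there follow in part from this choice. The minimum of 200 UMIs also counted the rich barcodes, and some genes passed it only through them. *Slc45a2* had 2126 of its 2170 UMIs there and *Rab38* 1484 of its 1560. The share above 0.9 and the ranking are therefore a description. *Wbp11* was at 124 CPM in rich barcodes, 76.5 CPM under 200 genes and 55.7 CPM in T cells. The members themselves had an r of 0.934 (*Tyr*) to 0.994 (*Dct*) with the sum that contains them.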

How the data were processed

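The authors deposited gene expression as unnormalized UMI counts for each barcode (10x Genomics 5′ chemistry, Cell Ranger, a combined GRCh38 and mm10 reference), before their cell filters. The hashtag and T cell receptor files were deposited as counts of UMIs per tag or contig. The matrix header names Cell Ranger 3.1.0 and the submitters' processing notes name 6.1.1. Mouse genes were used. The members, groups and marker lists were chosen with earlier results of these data known. Named genes were the 5 members, the leading genes of each fixed list, the companion list and the 10 genes of highest r.

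UMIs were summed per group and scaled to CPM, with exact Poisson intervals for counts, exact binomial (Clopper-Pearson) intervals for shares and exact conditional binomial intervals for ratios at 95%, in Python 3.11.15 with NumPy 2.4.6, SciPy 1.17.1 and pandas 2.3.3. Intervals cover counting error only. Barcodes are not replicates, so no p was computed. A tumor was assigned where all tag UMIs, at least 1, were of its tags. The ratio and ranking steps were tested on simulated data. Depth was 43420305 mouse UMIs in 1 library. Alternatives to the gene limit, the T cell rule, the threshold and the members used are given in the closing section.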

Additional observations from a re-analysis of the deposited data

How the results depend on the processing

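No paired analysis was possible because there is 1 gene expression library and no result comes from a test. Of 9 alternatives for the level in barcodes under 200 genes, 7 stayed within its interval, and it was 119 CPM under 100 genes and 314 CPM under 300 genes. Leaving out sums of 20 or more or of 10 or more could not change this level, as none of these barcodes had a sum above 2. The level in T cells with the rich barcodes kept, 211 CPM, moved in all 6. It was 131 CPM with at least 2 *Cd3e* UMIs and 218 CPM by a productive TCR β contig. Each of these kept the rich barcodes that met its own rule, which were not the same 19. The former dropped rich barcodes with 1 *Cd3e* UMI, and the latter held 11 rich barcodes, 8 of them with *Cd3e*. As a mean of each barcode's CPM, with all 19 kept, the level was 49.9 CPM. It was 14.4 CPM within the study's quality limits, which no rich T cell met. Without sums of 20 or more or of 10 or more it was 14.01 CPM. The estimate of 5.60% stayed within its interval in 14 of 20, counting the limit of 10 for the sum, which left out no further barcode. It was 11.7% with barcodes under 100 genes, 4.24% by a productive TCR β contig, 8.50% from *Tyrp1* alone, 2.87% from *Tyr* alone, 12.1% as a mean of each barcode's CPM, and 84.5% with the 19 rich T cells kept, which hold most member UMIs of T cells. The share of 0.127% set by the rich barcodes was 0.104% with at least 2 *Cd3e* UMIs and 0.0962% by a productive TCR β contig. The level in myeloid cells stayed within its interval in all 5. Leaving out sums of 20 or more or of 10 or more could not change it, as no myeloid cell had a sum above 3. Apart from the 19 rich barcodes, the cause of these shifts was not tested. Leaving out hemoglobin-rich barcodes, limits on the mitochondrial share and a minimum of 200 genes for T cells were chosen after seeing the data. Depth limits the single-gene values: *Tyr* and *Tyrp1* had 5 and 7 UMIs in barcodes under 200 genes.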

Other observations

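Markers of other cell types in the rich barcodes were mostly near 0. *Sparc*, which encodes a secreted matrix protein, had 1181 of the 1183 UMIs of the 5 fibroblast markers (286 CPM for the list), and a UMI of the list was in 105 of the 109 barcodes. *Lgmn*, a lysosomal protease gene, had 195 of the 231 UMIs of the 10 macrophage and monocyte markers. Neutrophil, erythrocyte and keratinocyte markers had 0 UMIs. Barcodes of 200 genes or more that were neither T cells nor rich held 0.0800 member UMIs per barcode (0.0625 to 0.101) at 500 to 1000 total UMIs, where T cells held 0.0411 (0.0293 to 0.0562). At 8000 or more they held 0.443 (0.326 to 0.590), of which 1 barcode just below the threshold for rich barcodes gave 17 of 47 UMIs, and 0.286 (0.193 to 0.408) without it.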
